A study of Mus musculus with 2 samples.

Results

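The cholesterol module described here holds 32 genes that cells use to make, import, store and export cholesterol. They were chosen by symbol from a list of known pathway genes, with earlier results of these data known. All 32 were found once among the 27998 genes of the deposited matrices. By role they are 4 regulators, 19 synthesis enzymes (9 on the mevalonate side and 10 on the sterol side), 4 transport and storage genes and 5 efflux genes. The cells were leukocytes, sorted on CD45 from transplanted B16 melanomas of mice, and their transcripts were counted one by one in droplets from tagged 3' ends as unique molecular identifiers (UMIs), so that a transcript is counted whatever its length. There were 2 libraries and 1 per genotype, both from female C57BL/6 mice aged 5 weeks, 14 days after tumour inoculation. The control mice were Foxp3Cre-YFP, in which the promoter of Foxp3, the defining gene of regulatory T (Treg) cells, drives Cre with a yellow fluorescent protein. The other mice were Nrp1L/L Foxp3Cre-YFP, which carry the same Cre together with floxed Nrp1, the gene of neuropilin-1. The recombination is therefore directed at Treg cells, and none of the 4 cell classes compared here is the targeted one. Whether a library came from 1 mouse or a pool is not given in the sources used here. Each genotype has 1 library, so an effect of genotype and one of the animal, its tumour or the library preparation cannot be told apart, and differences are given as sizes with no test.

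Cholesterol is built from acetyl-CoA through mevalonate to farnesyl and geranylgeranyl units, then through squalene and lanosterol to the finished sterol. When membrane sterol runs low, SCAP carries SREBP2 out of the endoplasmic reticulum and the factor switches on most of the synthesis genes together, while INSIG proteins hold the complex back when sterol is plentiful. Oxysterols made from excess cholesterol act on liver X receptors, which raise export genes, and dividing lymphocytes and lipid-loaded macrophages are the textbook cases in which the opposite ends of this circuit are used.

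The control matrix held 1310 barcodes and 13042802 UMIs, and the Nrp1L/L matrix 1301 barcodes and 8978610 UMIs, with median depths of 8079.5 and 5334 UMIs per barcode. Cells were sorted into 4 classes by UMI cuts on a few genes, named in the processing notes. This gave 232 control and 384 Nrp1L/L CD8 T cells, 113 and 233 NK cells, 274 and 93 macrophages, and 327 and 142 monocytes. The libraries shared 3 barcodes. Cd3e and C1qa are among the genes of these cuts, so their levels follow from the cuts and do not check the classes. Cd3e stood at 385 and 538 CPM (UMIs per 1000000 UMIs of all cells in the class) in CD8 T cells against at most 47.2 CPM elsewhere, and C1qa at 4377 and 5358 CPM in macrophages against at most 21.9 CPM elsewhere. Csf1r, which is in no cut, stood at 170 and 160 CPM in macrophages and 198 and 237 CPM in monocytes. Its level was at most 2.13 CPM in CD8 T and NK cells. Foxp3 had 0 UMIs in all 4 classes, and B cell markers summed to at most 9.52 CPM. Melanoma transcripts summed to 45.1 and 48.0 CPM in macrophages and to at most 8.32 CPM in the other classes. Nrp1 itself stood at 57.6 and 24.8 CPM in CD8 T cells, 81.6 and 74.1 CPM in macrophages and 23.1 and 41.6 CPM in monocytes, with 2 UMIs per library in NK cells. Its 3' tags may lie outside the deleted part, so these counts do not check the deletion.

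The first question is whether the synthesis genes differed between the genotypes in each class. They stood lower in the Nrp1L/L library in 3 of the 4 classes, by a similar amount in CD8 T cells, NK cells and monocytes, and were level in macrophages. In CD8 T cells the 19 genes summed to 983 CPM (948 to 1020, exact Poisson 95% interval) in control cells and 648 CPM (621 to 676) in Nrp1L/L cells. The log2 ratio of Nrp1L/L over control was -0.60 (-0.68 to -0.52, exact conditional binomial interval), and all intervals here cover counting error only. In NK cells the sums were 805 and 488 CPM (log2 -0.72, -0.88 to -0.56). Monocytes held the highest control sum, 1169 CPM against 751 CPM (log2 -0.64, -0.75 to -0.53). In macrophages the sums were 664 and 670 CPM (log2 0.01, -0.12 to 0.14), so the macrophage interval lies apart from those of the other 3 classes.

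**Figure D1:**
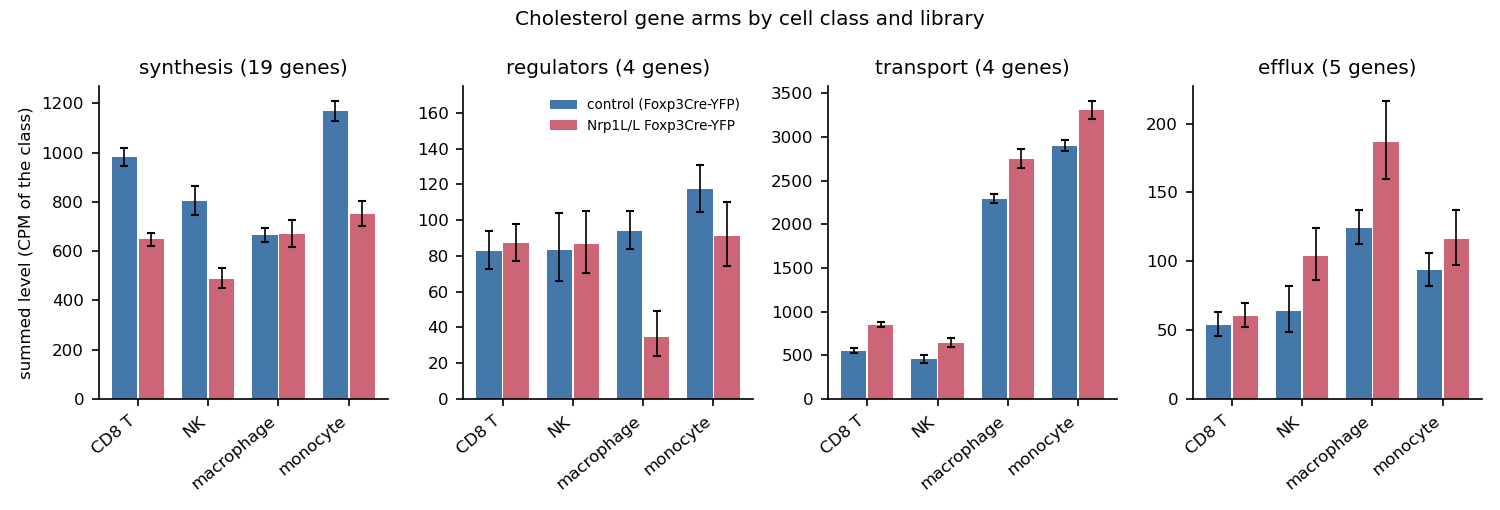
Summed level (CPM of the class, linear axes from 0) of the synthesis, regulator, transport and efflux genes in 4 cell classes of the control (blue) and Nrp1L/L (red) libraries, with 1 library per bar and exact Poisson 95% intervals. Synthesis was lower in the Nrp1L/L library in CD8 T cells, NK cells and monocytes and level in macrophages, where the regulators stood at 94.0 and 34.9 CPM.

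A member was given a ratio where it had at least 20 UMIs over both libraries of a class, which 28 of 32 members had in CD8 T cells, 22 in NK cells, 28 in macrophages and 29 in monocytes. In CD8 T cells 11 of 18 such synthesis members were at least 1.5-fold lower and 1 was higher, with a median log2 ratio of -0.82. Among all 8864 genes with a ratio in that class, 14.0% were at least 1.5-fold lower and 16.8% higher, and their median was 0.00. In NK cells 5 of 15 synthesis members were lower and 0 higher (median -0.42), against 14.2% lower and 22.6% higher among all genes (median 0.07). In monocytes 9 of 18 were lower and 1 higher (median -0.62), against 17.8% lower and 16.0% higher (median -0.01). In macrophages 2 of 16 were lower and 1 higher (median -0.01), while 23.2% of all genes were lower and 14.4% higher (median -0.11), so the members called lower were no more frequent there than genes in general. Of the 15 synthesis members with a ratio in all 4 classes, 13 were lower in at least 1 class, 8 in at least 2 and 3 (Hmgcs1, Fdps and Cyp51) in 3. Among the 5599 genes with a ratio in all 4 classes these shares were 39.1%, 12.5% and 2.77%. The members were chosen with earlier results of these data known, so the shares over all genes give a scale and no test. The calls of Hmgcs1 in monocytes and Cyp51 in NK cells were not kept under every alternative: Hmgcs1 was at -0.38 after thinning each cell to 2500 UMIs, and Cyp51 at -0.35 without CD3 cells in the NK gate.

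**Figure D2:**
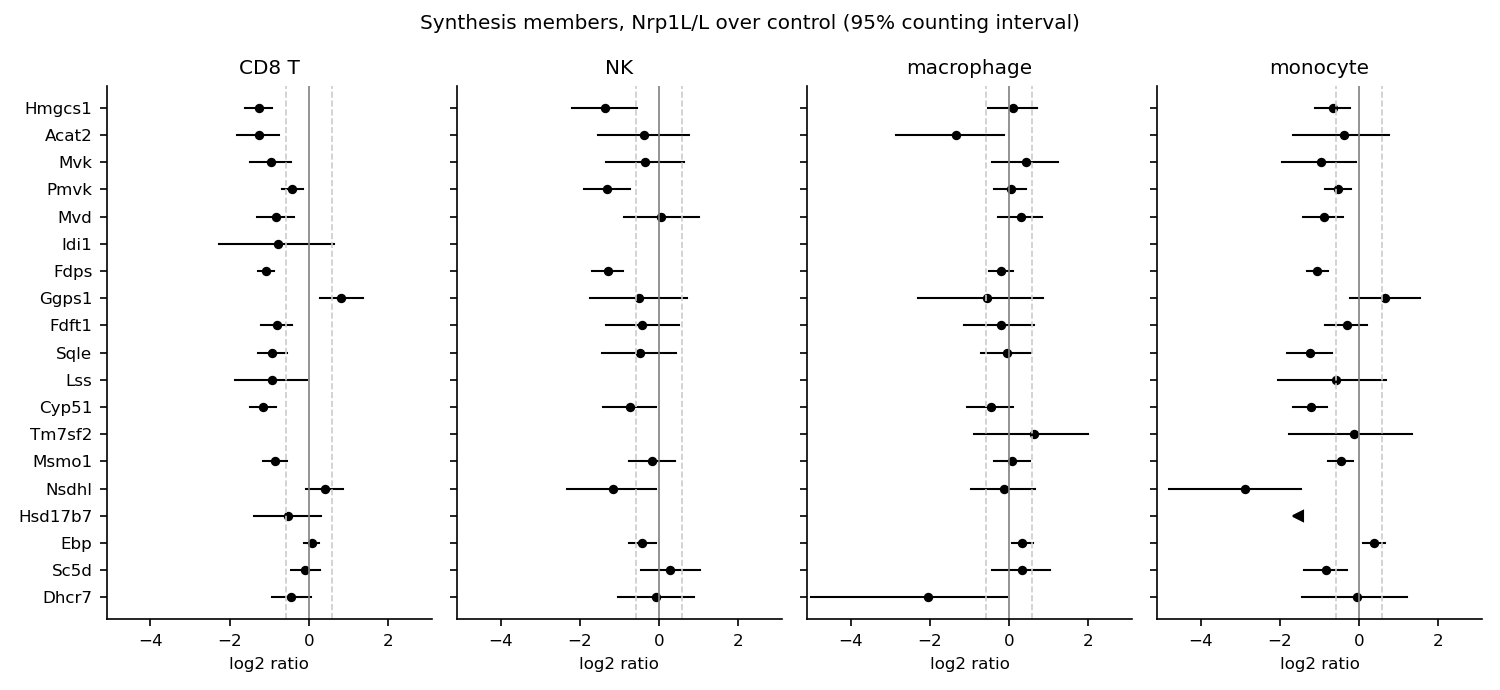
Log2 ratio of Nrp1L/L over control for each synthesis gene with at least 20 UMIs in a class, with its 95% counting interval, the solid line at 0 and dashed lines at 1.5-fold. An arrowhead is a bound for a gene with 0 Nrp1L/L UMIs, and most CD8 T and monocyte points lie left of 0 while macrophage points lie on both sides.

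The promoters of 4 synthesis genes are printed to set 3 that were lower in CD8 T cells and monocytes beside Ebp, which was not (for Hmgcs1 and Mvd in monocytes the call was not kept after thinning). Each stretch of 160 bases ends near the transcription start, reads 5′ to 3′ on the gene's strand and comes from RefSeq's GRCm38.p6 promoter table, which holds 26 of the 32 members. Capitals mark a sterol regulatory element spelled TCACNCCAC or a CCAAT box, each searched on both strands (a CCAAT box on the other strand reads ATTGG). The stretches lie at chr13:119690191-119690350 (Hmgcs1, plus strand), chr5:4104698-4104857 (Cyp51, minus), chr8:122443423-122443582 (Mvd, minus) and chrX:8193513-8193672 (Ebp, minus).
Hmgcs1: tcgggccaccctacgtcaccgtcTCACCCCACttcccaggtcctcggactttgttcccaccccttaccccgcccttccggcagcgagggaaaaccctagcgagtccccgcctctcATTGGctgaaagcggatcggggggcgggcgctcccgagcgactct
Cyp51: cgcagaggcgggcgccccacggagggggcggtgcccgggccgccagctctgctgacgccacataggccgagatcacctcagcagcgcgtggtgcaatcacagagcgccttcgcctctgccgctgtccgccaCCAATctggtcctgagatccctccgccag
Mvd: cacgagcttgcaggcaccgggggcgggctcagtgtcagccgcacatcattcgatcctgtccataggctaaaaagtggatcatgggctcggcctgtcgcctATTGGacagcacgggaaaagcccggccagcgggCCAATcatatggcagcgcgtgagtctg
Ebp: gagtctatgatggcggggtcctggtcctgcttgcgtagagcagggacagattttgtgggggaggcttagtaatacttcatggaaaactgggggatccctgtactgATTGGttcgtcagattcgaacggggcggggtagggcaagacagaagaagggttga

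In the whole window from 250 bases before to 50 after the start, a CCAAT box was found in 21 of the 26 matched members and in 15 of the 16 matched synthesis members, against 37.4% of the 32851 windows in the table. Acat2 was the synthesis member without one, and Scap, Abca1, Nr1h2 and Nr1h3 lacked it among the others. The TCACNCCAC spelling was found in 1 member, Hmgcs1, and in 1.24% of all windows. Either string counted for a member if any of its windows held it, while the percentages are shares of single windows. The member counts and the percentages are therefore unlike measures. Ebp stayed within 1.5-fold in all 4 classes, though it was lower in NK cells and higher in monocytes beyond counting error. It has a CCAAT box too, and the relation of the box to the levels was not tested. A match is a string of letters and not a shown binding site, and other spellings of the sterol element were not searched.

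On the mevalonate side, the sum over 9 genes gave log2 ratios of -0.83 in CD8 T cells (514 and 290 CPM), -0.74 in monocytes and -0.08 in macrophages, and in NK cells the sums were 404 and 203 CPM. Fdps, which joins isoprene units into farnesyl diphosphate, had the most UMIs of these genes in each library and class. It stood at 186 CPM (171 to 203) in control and 88.3 CPM (78.5 to 98.9) in Nrp1L/L CD8 T cells, a log2 ratio of -1.08 (-1.29 to -0.87). In NK cells Fdps stood at 174 and 70.8 CPM (-1.30, -1.70 to -0.90). In monocytes it stood at 267 and 128 CPM (-1.06, -1.32 to -0.80). The macrophage levels, 141 and 122 CPM (-0.20, -0.52 to 0.10), did not differ beyond counting error, and the control macrophage level lay between the 2 CD8 T levels.

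Hmgcs1, the synthase that feeds the mevalonate step, followed the same order. It stood at 77.8 and 32.3 CPM in CD8 T cells (-1.27, -1.61 to -0.93), 44.8 and 17.5 CPM in NK cells (-1.36) and 75.2 and 47.6 CPM in monocytes (-0.66). Macrophages held 30.3 and 32.7 CPM, a level close to that of the Nrp1L/L CD8 T cells. Acat2, the thiolase of the first step, stood at 33.1 and 13.8 CPM in CD8 T cells (-1.27, -1.80 to -0.74) and was the 1 mevalonate gene lower in macrophages (54 and 6 UMIs, 16.7 and 6.54 CPM, -1.35, -2.86 to -0.14). That macrophage ratio was -0.76 after thinning (10 and 2 UMIs) and -3.44 without the 3 cells holding most Acat2 UMIs in each library (39 and 1 UMIs). Its near-identical neighbour Acat3 had at most 2 UMIs in any class and library.

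The kinases and the decarboxylase downstream differed by class. Mvk, mevalonate kinase, stood at 29.7 and 15.3 CPM in CD8 T cells (-0.96) and 21.9 and 11.3 CPM in monocytes (-0.96, -1.95 to -0.08). Mvd, the decarboxylase, stood at 34.8 and 19.4 CPM in CD8 T cells (-0.84) and 66.2 and 35.5 CPM in monocytes (-0.90), but at 20.3 and 21.0 CPM in NK cells (0.05). After thinning, the monocyte ratio of Mvd was -0.31 from 37 and 13 UMIs, so it was not kept at 1.5-fold at equal depth. Pmvk, the second kinase, was lower by less in CD8 T cells (85.3 and 64.0 CPM, -0.41) and monocytes (124 and 86.6 CPM, -0.52). In NK cells Pmvk stood at 84.3 and 34.1 CPM (-1.31, -1.90 to -0.74). After each cell was thinned to 2500 UMIs the ratio was 0.03 from 10 and 21 UMIs, so that difference was not kept at equal depth. Without the 3 cells holding most Pmvk UMIs in each library the ratio was -1.43 (54 and 26 UMIs). Idi1, the isomerase, had 12 and 8 UMIs in CD8 T cells (-0.77, -2.27 to 0.64) and was the 1 of the 11 lower members there whose interval held 0. It had too few for a ratio elsewhere.

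Past farnesyl diphosphate the route divides. Ggps1, which makes the geranylgeranyl unit used for protein anchors, stood at 15.7 CPM in control and 27.5 CPM in Nrp1L/L CD8 T cells (0.81, 0.29 to 1.35), the 1 synthesis member at least 1.5-fold higher there. Of its 92 Nrp1L/L UMIs, 30 came from 1 cell, and without the 3 cells holding most of its UMIs in each library the levels were 11.8 and 15.6 CPM (0.40). It had 29 and 20 UMIs in monocytes (0.66, -0.24 to 1.53), and its intervals in NK cells (-0.51) and macrophages (-0.56) held 0 too. Fdft1, the squalene synthase that commits the route to sterol, stood at 47.8 and 27.2 CPM in CD8 T cells (-0.81, -1.21 to -0.42), while in the other classes its interval held 0. Ggps1 overlaps Arid4b and Fdft1 overlaps Ctsb on the opposite strand. Cyp51, Mvd, Lss and Npc1 also overlap other counted genes on the opposite strand, and Fdps and Tm7sf2 overlap one on their own strand. Whether counting used the strand is not given in the sources used here, so reads of such pairs may be shared.

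On the sterol side, the 10 genes summed to ratios of -0.39 in CD8 T cells, -0.49 in NK cells, -0.53 in monocytes and 0.10 in macrophages. Sqle, the epoxidase that is a rate-limiting step, stood at 56.6 and 29.9 CPM in CD8 T cells (-0.92, -1.29 to -0.55) and 67.3 and 28.6 CPM in monocytes (-1.24, -1.82 to -0.69). Cyp51, the lanosterol demethylase, stood at 83.2 and 37.4 CPM in CD8 T cells (-1.15, -1.48 to -0.84), 51.2 and 30.6 CPM in NK cells (-0.74, -1.42 to -0.08) and 115 and 49.3 CPM in monocytes (-1.22, -1.66 to -0.81). In macrophages Cyp51 held 46.4 and 33.8 CPM (-0.46, -1.06 to 0.11).

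Msmo1, the C4-methyl sterol oxidase, stood at 76.1 and 42.2 CPM in CD8 T cells (-0.85, -1.17 to -0.54) and at 138 and 99.5 CPM in monocytes (-0.47). The monocyte ratio was -0.65 after thinning, past 1.5-fold. Nsdhl, the next enzyme in removing the methyl groups, was low in Nrp1L/L monocytes, with 4 UMIs in 4 cells (3.46 CPM) against 68 UMIs in 36 control cells (25.7 CPM). Its ratio there was -2.89 (-4.81 to -1.47), the lowest of any synthesis member with UMIs in both libraries of a class. In NK cells Nsdhl stood at 23.5 and 10.5 CPM (-1.16, -2.31 to -0.08), but in CD8 T cells at 22.5 and 29.6 CPM (0.40, -0.07 to 0.87), which is the opposite direction. Hsd17b7, the partner reductase, stood at 9.89 and 6.88 CPM in CD8 T cells (-0.52, -1.38 to 0.32). It had 20 UMIs in control monocytes and 0 in Nrp1L/L monocytes, at least 2.91-fold lower with 3 counts over the class taken as the floor. After thinning it had 7 and 0 UMIs, and the bound was -0.02 on the log2 scale.

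The last sterol steps were mixed. Ebp, a sterol isomerase, stood at 140 and 147 CPM in CD8 T cells (0.07, -0.12 to 0.26), 131 and 166 CPM in macrophages (0.34) and 115 and 149 CPM in monocytes (0.38, 0.10 to 0.65). It was the reverse in NK cells, at 166 and 124 CPM (-0.42, -0.76 to -0.09). Sc5d, the desaturase after Ebp, was lower in monocytes (55.6 and 31.2 CPM, -0.83, -1.40 to -0.30) and level in CD8 T cells (41.3 and 38.9 CPM, -0.09). Dhcr7, the reductase of the final step, had 29 and 2 UMIs in macrophages (-2.04, -5.15 to -0.06), and with 4 and 1 UMIs left after thinning the ratio was -0.44, under 1.5-fold. It stood at 26.9 and 19.7 CPM in CD8 T cells (-0.45, -0.94 to 0.04). Lss, the lanosterol synthase, had 30 and 18 UMIs in CD8 T cells (-0.93, -1.86 to -0.04), and thinning left 2 and 4 UMIs with a ratio of 0.27. Tm7sf2, a sterol reductase, had at most 16 UMIs in any class and library.

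The share of cycling cells differed between the libraries, so the classes were also divided by UMIs of 4 division genes. Of CD8 T cells 43.1% were cycling among control cells (100 cells, 36.6% to 49.7%, exact binomial 95% interval) and 23.2% among Nrp1L/L cells (89 cells, upper bound 27.7%). The cut was on raw UMIs, and the median depths of these CD8 T cells were 10846 and 6588.5 UMIs. The division genes summed to 997 and 840 CPM in them, and the part of depth in the 2 shares was not tested. Synthesis genes stood higher in the cycling cells of both libraries, by similar factors. The 19 genes summed to 684 CPM in non-cycling and 1147 CPM in cycling control CD8 T cells (log2 0.74, 0.62 to 0.87). The Nrp1L/L sums were 502 and 852 CPM (0.76, 0.64 to 0.89). Cycling cells had median depths of 17236.5 and 13920 UMIs against 6024 and 5902 UMIs in non-cycling cells, and with the gates set on depth-scaled UMIs the ratio over both libraries was 0.58 in place of 0.75.

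Of 16 synthesis members with a ratio in both libraries, 8 were at least 1.5-fold higher in cycling CD8 T cells of each (Hmgcs1, Mvk, Pmvk, Fdps, Sqle, Cyp51, Msmo1 and Dhcr7). Across all 6965 genes 13.1% met that rule, and 7.16% were lower in both. Cyp51 went from 42.5 to 105 CPM in control cells (1.31, 0.84 to 1.82) and from 18.4 to 64.0 CPM in Nrp1L/L cells (1.80, 1.22 to 2.40). Sqle went from 32.8 to 69.6 CPM (1.09) and from 15.9 to 49.6 CPM (1.65, 1.01 to 2.31). Insig1, itself a target of SREBP2, and Stard4, a carrier of sterol through the cytosol, were higher in both as well, which makes 10 of 24 members. Npc2, the lysosomal sterol carrier, was the 1 member lower in cycling cells of both, at 711 CPM in non-cycling and 362 CPM in cycling control cells (-0.97) and at 985 and 513 CPM in Nrp1L/L cells (-0.94). Acat2 differed between the libraries, going from 13.5 to 43.8 CPM in the control (1.70, 0.87 to 2.63) and from 13.3 to 14.4 CPM in the other (0.11, -0.81 to 1.01).

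**Figure D3:**
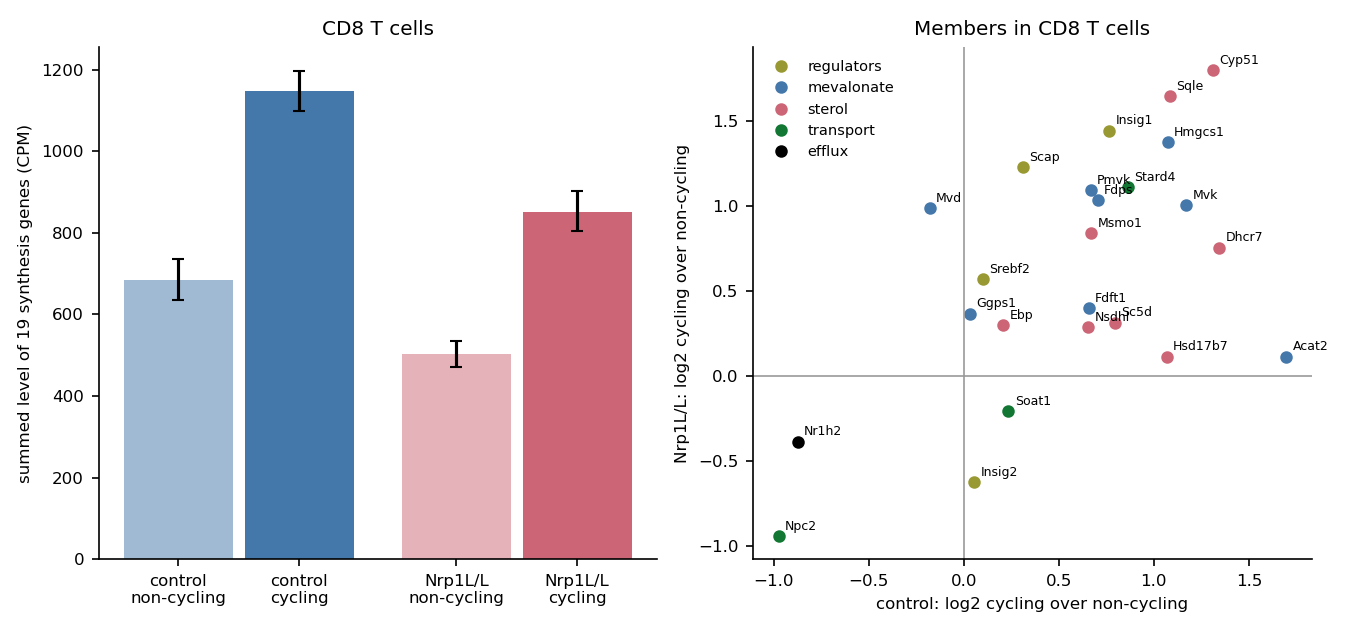
Left, summed level of the 19 synthesis genes (CPM) in non-cycling and cycling CD8 T cells of each library with exact Poisson 95% intervals; right, log2 ratio of cycling over non-cycling cells for each of 24 members in the control (horizontal) and Nrp1L/L (vertical) library, coloured by role. Most synthesis genes lie in the upper right, and Npc2 lies at -0.97 and -0.94.

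With cycling and non-cycling cells set apart, the synthesis sum remained lower in the Nrp1L/L library by a smaller amount. In non-cycling CD8 T cells it was 684 and 502 CPM (-0.45, -0.59 to -0.30), and in cycling ones 1147 and 852 CPM (-0.43, -0.53 to -0.33). In the non-cycling cells, whose median depths were nearly equal, 7 of 15 synthesis members were lower and 2 higher, against 13.3% and 19.3% of all genes. In the cycling cells 9 of 17 were lower and 1 higher, against 13.7% and 16.2%. The mevalonate sum of non-cycling CD8 T cells was 361 and 212 CPM (-0.77, -0.97 to -0.56). Their sterol sum was 323 and 290 CPM (-0.16, -0.35 to 0.04), of which Ebp made 127 and 134 CPM. Of 7 sterol members with a ratio there, 3 were lower and 1 higher, against the same 13.3% and 19.3%. Cyp51 (42.5 and 18.4 CPM) and Sqle (32.8 and 15.9 CPM) were among the lower ones. Non-cycling NK cells showed 664 and 487 CPM (-0.45, -0.63 to -0.26), with 5 of 15 members lower and 2 higher against 13.3% and 21.8%. Non-cycling macrophages held 693 and 644 CPM (-0.11, -0.25 to 0.04), with 4 of 16 lower and 0 higher against 19.8% and 15.4%. Monocytes held only 4 and 2 cycling cells, so their values are almost unaffected (1158 and 750 CPM, -0.63).

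Cycling cells of the other classes did not share the CD8 T pattern in both libraries. In control NK cells synthesis was higher in the 14 cycling cells, at 1184 against 664 CPM (0.84, 0.62 to 1.05). The 13 cycling Nrp1L/L NK cells held 501 against 487 CPM (0.04, -0.37 to 0.43). In control macrophages the 60 cycling cells stood slightly lower, at 597 against 693 CPM (-0.21, -0.35 to -0.08), and the 7 cycling Nrp1L/L macrophages higher, at 874 against 644 CPM (0.44, 0.11 to 0.76). The Nrp1L/L values rest on few cells.

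The regulators stood lower in Nrp1L/L macrophages, by an amount that differed between settings. Their sum was 94.0 CPM (83.7 to 105) in control and 34.9 CPM (23.9 to 49.2) in Nrp1L/L macrophages, a log2 ratio of -1.43. With every macrophage thinned to 2500 UMIs the ratio was smaller, -0.79 (-1.77 to 0.09), and its interval held 0. Elsewhere it was near level, at 0.07 in CD8 T cells, 0.06 in NK cells and -0.37 (-0.70 to -0.04) in monocytes. Srebf2, which encodes SREBP2 (ENSMUSG00000022463, chromosome 15), carried much of this, with 102 UMIs in 54 control macrophages (31.5 CPM) and 4 UMIs in 4 Nrp1L/L macrophages (4.36 CPM, -2.85, -4.76 to -1.45). After the same thinning, Srebf2 kept 24 control and 0 Nrp1L/L UMIs. Other classes of the Nrp1L/L library did not show so low a level, since Srebf2 stood at 22.1 CPM in its CD8 T cells, 18.3 CPM in its NK cells and had 37 UMIs in its monocytes. In NK cells Srebf2 stood at 28.8 and 18.3 CPM (-0.65, -1.55 to 0.23), which is within counting error. The synthesis sum in macrophages was 664 and 670 CPM, and its relation to the Srebf2 level was not tested.

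Insig2, which retains SCAP in the endoplasmic reticulum, had 129 UMIs in control macrophages (39.9 CPM), 24 of them in 1 cell, and 14 in Nrp1L/L macrophages (15.3 CPM, -1.39, -2.30 to -0.59). After thinning its ratio was 0.07 from 28 and 10 UMIs, so the difference was not kept at equal depth. Insig1 stood at 17.6 and 10.9 CPM in macrophages (-0.69, -1.83 to 0.29) and 29.1 and 18.2 CPM in monocytes (-0.68, -1.45 to 0.03), both intervals holding 0. Insig2 leaned the other way in CD8 T cells, at 29.7 and 39.8 CPM (0.42, 0.02 to 0.83). Scap had at most 40 UMIs in any class and library and stood within 1.5-fold in all 4 classes.

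**Figure D4:**
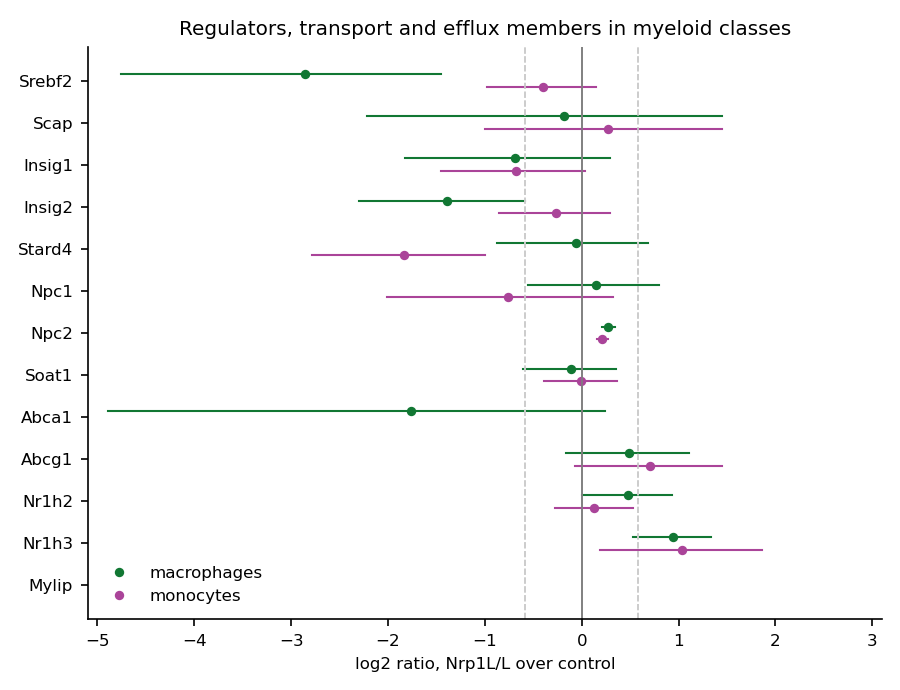
Log2 ratio of Nrp1L/L over control with its 95% counting interval for the regulator, transport and efflux genes in macrophages (green) and monocytes (purple), with dashed lines at 1.5-fold and no point for a gene under 20 UMIs. Srebf2 in macrophages lies at -2.85, Stard4 in monocytes at -1.83, and Nr1h3 lies above 0 in both classes.

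Among the transport genes, Stard4 was lower in monocytes, and in NK cells with a call that other settings did not keep. It stood at 40.1 CPM (106 UMIs) in control and 11.3 CPM (13 UMIs) in Nrp1L/L monocytes (-1.83), and at 60.8 and 34.9 CPM in NK cells (-0.80, -1.42 to -0.19), where the ratio was -0.22 without CD3 cells. CD8 T cells (48.8 and 42.5 CPM, -0.20) and macrophages (21.6 and 20.7 CPM, -0.06) were level for it. Npc1, the lysosomal membrane exporter of sterol, stood at 25.7 and 28.3 CPM in macrophages (0.14) and had at most 35 UMIs per library elsewhere. It was at least 1.5-fold higher in NK cells and lower in monocytes (35 and 9 UMIs, 13.2 and 7.79 CPM), both with intervals that held 0. Soat1, which esterifies cholesterol for storage, stood at 74.9 and 74.4 CPM in monocytes (-0.01, -0.39 to 0.36) and 56.6 and 52.3 CPM in macrophages (-0.11). Soat1 RNA did not differ beyond counting error in the myeloid classes, and storage itself was not measured.

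Npc2, the soluble partner of Npc1, moved opposite to the synthesis genes. Its level was higher in Nrp1L/L cells of all 4 classes, at 486 and 789 CPM in CD8 T cells (0.70, 0.61 to 0.79), 370 and 585 CPM in NK cells (0.66, 0.47 to 0.85), 2187 and 2645 CPM in macrophages (0.27) and 2771 and 3211 CPM in monocytes (0.21, 0.16 to 0.27). Myeloid cells hold much more of it, and the part of free myeloid RNA in the lymphocyte values was not tested. Lyz2, a monocyte gene, stood at 86.3 and 67.6 CPM in CD8 T cells and 112 and 78.6 CPM in NK cells. C1qa, a macrophage gene, stood at 17.1 and 10.8 CPM in CD8 T cells. In non-cycling CD8 T cells Npc2 stood at 711 and 985 CPM, and in cycling ones at 362 and 513 CPM.

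The efflux sum stood higher in Nrp1L/L macrophages, by 1.49986-fold and so just under the 1.5-fold limit. Of 4 efflux members with a ratio there, 1 was at least 1.5-fold higher and 1 lower. Among all genes of the class 14.4% were higher and 23.2% lower. The 5 genes summed to 124 CPM (112 to 137) in control and 186 CPM (159 to 216) in Nrp1L/L macrophages (0.58, 0.32 to 0.85). Nr1h3, the liver X receptor alpha (ENSMUSG00000002108, chromosome 2), stood at 46.1 and 88.3 CPM, with 149 UMIs in 66 control macrophages and 81 UMIs in 27 Nrp1L/L ones (0.94, 0.53 to 1.34). Nr1h2, the beta receptor, stood at 43.9 and 61.0 CPM there (0.48, 0.00 to 0.93). Abcg1, the exporter to mature lipoprotein, stood at 24.1 and 33.8 CPM (0.49, -0.16 to 1.10), so it did not differ beyond counting error. Abca1, the exporter to lipid-poor apolipoprotein, had 24 and 2 UMIs (-1.77, -4.89 to 0.24), and Mylip, the ligase that degrades lipoprotein receptors, 9 and 1. Most of the higher sum came from the 2 receptors, and both exporters had intervals that hold 0.

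In monocytes the efflux sum was 93.4 and 116 CPM (0.31, -0.00 to 0.62). Nr1h3 stood at 10.6 and 21.6 CPM there (1.03, 0.19 to 1.86), but 9 of its 25 Nrp1L/L UMIs came from 1 cell. Without the 3 cells holding most of its UMIs in each library it stood at 7.63 and 7.15 CPM (-0.09). Abcg1 in monocytes stood at 14.4 and 23.4 CPM (0.70, -0.07 to 1.45). In NK cells the sum was 64.0 and 104 CPM (0.70, 0.24 to 1.17), of which Nr1h2 made 59.7 and 83.9 CPM. CD8 T cells had 0 UMIs of Abca1 in both libraries, 1 and 2 of Nr1h3 and 5 and 16 of Abcg1. The floor of 3 counts allows Abca1 up to 1.02 and 0.898 CPM there.

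Between classes, the members differed about as often as genes in general. Against CD8 T cells, macrophages stood at least 1.5-fold higher in Npc1, Npc2, Soat1, Abcg1 and Nr1h3, 5 of 27 members, and 16.5% of all genes met that rule. They stood lower in 7 (Scap, Acat2, Ggps1, Fdft1, Sc5d, Dhcr7 and Stard4), against 30% of all genes. Soat1 shows the first group, with 56.6 CPM in control macrophages against 14.0 CPM in control CD8 T cells, and 52.3 against 12.6 CPM in Nrp1L/L cells. The synthesis sum in macrophages was below that of CD8 T cells in control cells (-0.57, -0.65 to -0.49) but level with it in Nrp1L/L cells (0.05, -0.08 to 0.18). Against monocytes, macrophages stood higher in Npc1 and Nr1h3 (2 of 23 members, 11.9% of all genes) and lower in Insig1, Fdft1 and Msmo1 (3 of 23, 9.84% of all genes). The macrophage to monocyte ratio of the synthesis sum was -0.82 (-0.90 to -0.74) for control and -0.16 (-0.32 to -0.01) for Nrp1L/L cells.

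**Figure D5:**
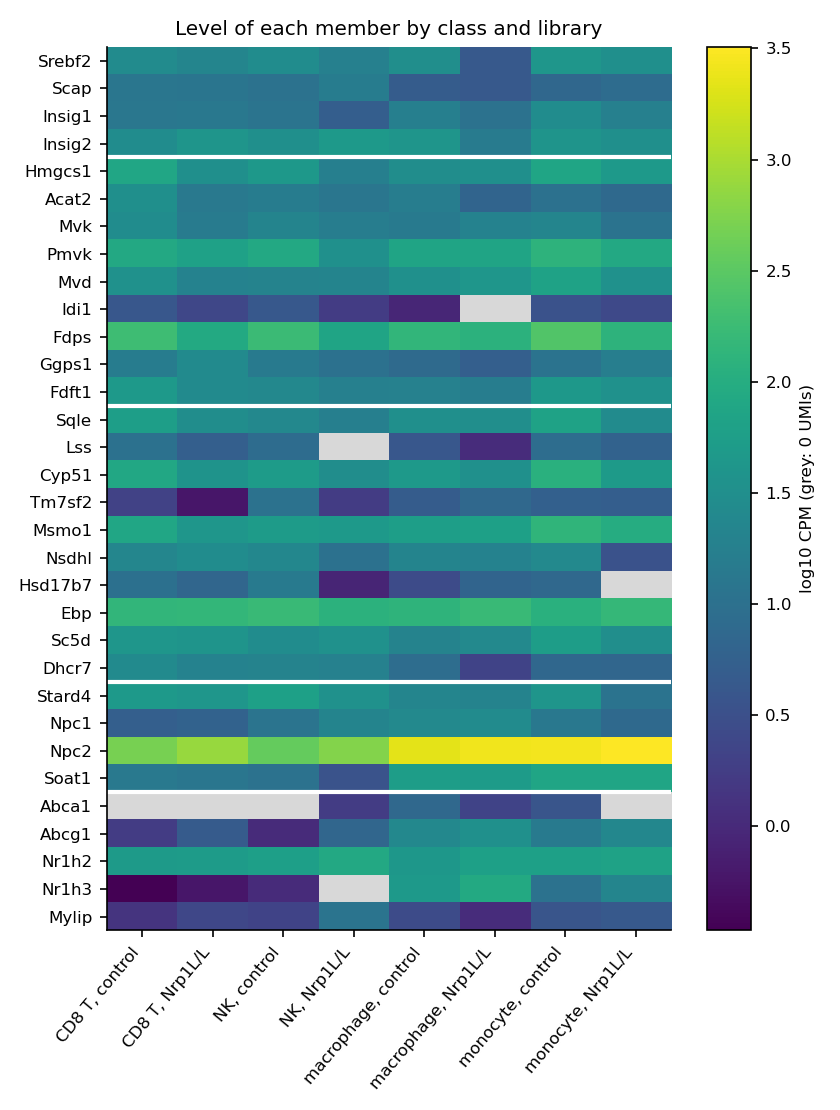
Level of each of the 32 members (log10 CPM, colour) in 4 classes of each library, with white lines between regulators, mevalonate, sterol, transport and efflux genes and grey for 0 UMIs. Npc2 stands highest of the 32 in each column, and Srebf2 is dark in Nrp1L/L macrophages.

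Pathway neighbours outside the module were counted by the same rule, for which the shares lower and higher over all genes were 14.0% and 16.8% in CD8 T cells, 14.2% and 22.6% in NK cells, 23.2% and 14.4% in macrophages and 17.8% and 16.0% in monocytes. With 4 to 12 genes with a ratio in each list and class, the counts are too small to say whether a list stands apart. Of the genes for prenylation and other mevalonate side branches, 1 of 12 was lower and 2 higher in CD8 T cells, 1 and 1 of 8 in NK cells, 4 and 1 of 11 in macrophages and 3 and 0 of 9 in monocytes. Rabggta, a subunit of the enzyme that attaches geranylgeranyl groups to Rab proteins, stood at 23.5 and 8.72 CPM in macrophages (-1.43, -2.69 to -0.38). Of the SREBP processing genes, 0 of 7 were lower and 2 higher in CD8 T cells, 0 and 0 of 4 in NK cells, 2 and 1 of 6 in macrophages and 1 and 2 of 6 in monocytes. Of the genes for cholesterol handling in phagocytes, 1 of 7 was lower and 4 higher in CD8 T cells, 1 and 1 of 5 in NK cells, 1 and 2 of 11 in macrophages and 3 and 0 of 12 in monocytes. Apoe, an apolipoprotein that accepts exported sterol, stood at 4243 and 2646 CPM in macrophages (-0.68), and Ch25h, which makes an oxysterol that restrains SREBP2, at 22.3 and 42.5 CPM (0.93, 0.33 to 1.52). Fatty acid synthesis genes were 3 lower and 2 higher of 10 in CD8 T cells, 1 and 4 of 7 in NK cells, 2 and 0 of 7 in macrophages and 2 and 0 of 6 in monocytes. The sum of this list gave -0.63 (-0.89 to -0.38) in monocytes, beside -0.64 for cholesterol synthesis there. It gave -0.50 (-0.80 to -0.21) in macrophages, -0.07 (-0.24 to 0.11) in CD8 T cells and 0.23 (-0.08 to 0.54) in NK cells. Fasn, the fatty acid synthase, had 84 and 40 UMIs in CD8 T cells (-1.26, -1.84 to -0.70) and had 32 and 1 UMIs in macrophages (-3.18, -8.53 to -0.60).

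Cells inside a gate need not be of 1 kind, and markers of other cells were measured beside these results. In the CD8 T gate the NK list, which holds genes that activated CD8 T cells also use, summed to 537 and 1146 CPM and dendritic cell markers to 121 and 70.0 CPM, and their part in the synthesis difference was not tested. In the monocyte gate dendritic cell markers summed to 108 and 429 CPM and NK markers to 63.5 and 193 CPM, and without cells holding dendritic or neutrophil markers the synthesis ratio was -0.52. The NK gate held 508 and 644 CPM of CD3 and CD8 genes, and without CD3 cells its synthesis ratio was -0.53. In the macrophage gate NK markers summed to 41.4 and 154 CPM, and their part in the regulator difference was not tested. Division markers summed to 286 and 120 CPM in macrophages. In non-cycling macrophages the regulators summed to 93.2 and 39.5 CPM (-1.24, -1.83 to -0.70).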

How the data were processed

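The deposited values are whole UMI counts for each gene in each barcode. The authors made them with Cell Ranger 1.3 on mm10, per the submitters' processing notes, and whether strand was used is not given in the sources used here. Scrublet (scanpy 1.11.5, 2% doublets assumed) was run per library. The 8 barcodes it called in the control were left out, and where it called under 0.5% (3 Nrp1L/L barcodes) the highest 26 scores were. Barcodes in 2 gates were left out (12 and 11 more), and 344 and 412 kept cells were in no gate. Gates were UMIs summed per cell: CD8 T, Cd3d, Cd3e and Cd3g at least 2 and Cd8a and Cd8b1 at least 2; NK, Ncr1 and Klrb1c at least 2; macrophage, C1qa, C1qb and C1qc at least 10; monocyte, Lyz2 at least 10 and those C1q genes under 10; cycling, Mki67, Top2a, Birc5 and Ube2c at least 3. Counts were summed per class and library and scaled to CPM. A ratio needed 20 UMIs over both libraries. All members are accounted for: those at least 1.5-fold apart with an interval leaving out 0 are named first, then the most abundant, and other genes come only from the lists by the same limits. Alternatives changed the scaling (TMM in edgeR 4.0.16, median of ratios, mean of per-cell CPM), doublets, gates, depth, minimum and fold. Summing and calling were tested on simulated counts. Members and lists were chosen with earlier results of these data known.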

Additional observations from a re-analysis of the deposited data

How the results depend on the processing

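No paired analysis was possible because each genotype has 1 library. All values below are log2 ratios of Nrp1L/L over control unless stated, and the alternative without the 3 cells holding most UMIs of the genes was chosen after seeing the data. The lower synthesis sums of CD8 T cells, NK cells and monocytes kept their sign under each alternative run, within -0.61 to -0.57, -0.79 to -0.53 and -0.70 to -0.52. The NK value was -0.53 without CD3 cells and the monocyte value -0.52 without dendritic or neutrophil marker cells. The macrophage sum ran from -0.14 (without the 3 cells) to 0.13, so its sign is not settled, and median-of-ratios scaling shifts all macrophage ratios by 0.11 (TMM by 0.092). Non-cycling CD8 T cells ran from -0.59 (with depth-scaled gates) to -0.38, at least 1.5-fold in 1 of 11 alternatives. Non-cycling NK cells ran from -0.56 to -0.32, at least 1.5-fold in 0 of 12. Non-cycling macrophages gave -0.27 without cells with melanoma RNA and -0.27 without the 3 cells. The cycling over non-cycling ratio was 0.58 in CD8 T cells with depth-scaled gates and -0.16 in NK cells without the 3 cells, and it was not computed for monocytes, which had 4 and 2 cycling cells. Reversed members were Lss in CD8 T cells (0.27), Pmvk in NK cells (0.026) and Insig2 in macrophages (0.073), each after thinning, and Nr1h3 in monocytes (-0.095) without the 3 cells. Of 35 named member ratios 31 kept 1 sign throughout and 20 stayed at least 1.5-fold. Besides these 4, the calls not kept were, at the value nearest 0, Ggps1 (0.40) and Npc2 (0.57) in CD8 T cells, Cyp51 (-0.35), Nsdhl (-0.55), Stard4 (-0.22) and Npc2 (0.43) in NK cells, Dhcr7 (-0.44) and Nr1h3 (0.52) in macrophages, and Hmgcs1 (-0.38), Mvd (-0.31) and Hsd17b7 (-0.02) in monocytes. The macrophage regulator sum was -0.79 after thinning. The efflux sum ran from 0.35 to 0.69 in macrophages, at least 1.5-fold in 5 of 9 alternatives. In monocytes that sum ran from 0.24 to 0.49, at least 1.5-fold in 0 of 10. The number of synthesis members called lower went from 11 to 4 in CD8 T cells and from 9 to 5 in monocytes at 2-fold. It went in NK cells from 5 to 2 after thinning and 9 with a minimum of 1 UMI, and in macrophages from 2 to 1 after thinning or at 50 UMIs, 4 with depth-scaled gates and 8 without the 3 cells. The cause was not tested.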
